A study of Mus musculus with 10 samples.

Results

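The genes described here encode small nucleolar RNAs, short noncoding RNAs of the nucleolus, measured in mouse aortas with and without the cytokine IL-17. A probe set was included when its only gene symbol in the platform annotation began with Snora or Snord followed by a digit, or was Rnu3a. This rule took 76 of 41345 probe sets, which carry 74 gene symbols. They fall into 48 probe sets of the box C/D class, the Snord genes and Rnu3a, and 28 probe sets of the box H/ACA class, the Snora genes, with 26 symbols. The genes were chosen by their differences between the groups in these same arrays, Rnu3a above all, so those differences are given as a description and support nothing by themselves.

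Small nucleolar RNAs guide the chemical modification of ribosomal RNA. Box C/D RNAs pair with their target and place a 2′-O-methyl group through the methyltransferase fibrillarin, and box H/ACA RNAs direct the conversion of uridine to pseudouridine through the enzyme dyskerin. Most are cut out of the introns of host genes after splicing, many of which encode ribosomal proteins or other parts of the translation machinery, while some host transcripts have no known protein product. A few members do not mainly guide modification. U3, encoded by Rnu3a, is transcribed from its own promoter and is needed to cleave the precursor of the small ribosomal subunit RNA.

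Total RNA of 10 whole aortas of male mice was hybridised to Affymetrix Mouse Gene 2.0 ST arrays, 1 aorta per array. One group of 5 lacked ApoE (ApoE-/-, C57BL/6), the apolipoprotein that clears lipoprotein remnants from plasma. The second 5 were deficient in ApoE as well as IL-17 (ApoE-/-/IL-17-/-, labelled C57B/L6) and are called the double knockout, so the loss of ApoE is shared by all animals. Feeding with high fat diet began in both groups at 8 weeks and lasted 3 weeks, and the aortas, collected at 11 weeks, represent early hyperlipidemia. The deletions are germline and not limited to a cell type. The breeding text given with the ApoE knockout samples also lists mice lacking caspase-1, and wild-type mice, but not IL-17, whereas that of the double knockout samples names IL-17. No scan date or batch is given in the sources used here, and batch and group cannot be told apart.

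Smooth muscle markers stood at mean log2 values between 9.51 and 13.46, as the aorta label requires. In bulk tissue, fewer cells of a type and less RNA per cell cannot be told apart. Over all probe sets, any pair of arrays correlated at 0.964 or more. Il17a had means of 4.41 (ApoE knockout) and 4.66 (double knockout). Both lie under 5.79, the level below which 95% of 1438 probe sets for olfactory, taste and vomeronasal receptors had their mean, called the receptor level here. At that level Il17a does not check the genotype labels. The Apoe probe set had means of 6.31 (ApoE knockout) and 6.98 (double knockout), both above that level. It was called higher in the double knockout (limma adjusted p = 0.0023). Il17f, at 5.97 and 6.49, was also called higher (limma adjusted p = 0.011). The genotypes therefore rest on the labels. The deposited scale differed at its low end, where the lower quartile of an array was 4.49 to 4.53 in ApoE knockout aortas against 4.72 to 4.83 in double knockout aortas. The receptor genes themselves had a median difference of 0.29, and the median of all probe sets was 0.15, where a difference is always the double knockout mean minus the ApoE knockout mean on the log2 scale. That median became 0.01 after quantile normalization, -0.05 after centring arrays on their median and -0.17 after centring them on the receptor genes.

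Box H/ACA RNAs stood higher in the double knockout as a class. Of the 28 probe sets, 27 had a difference above 0, 18 passed the limma threshold as higher (adjusted p under 0.05 over all probe sets), 0 passed as lower and 10 did not pass. The share called higher was 64.3%, beside 21.1% of all 41345 probe sets. Their median difference was 0.69, and the range ran from -0.07 to 1.59. In 15 probe sets every double knockout array lay above every ApoE knockout array, which was the case in 15.3% of all probe sets. A difference over 1, a doubling, was found in 7 of the 28, beside 1.2% of all probe sets. The pair of Snora19 probe sets held identical values, and with that pair counted once 17 of 27 were called higher and the median was 0.67.

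**Figure D1:**
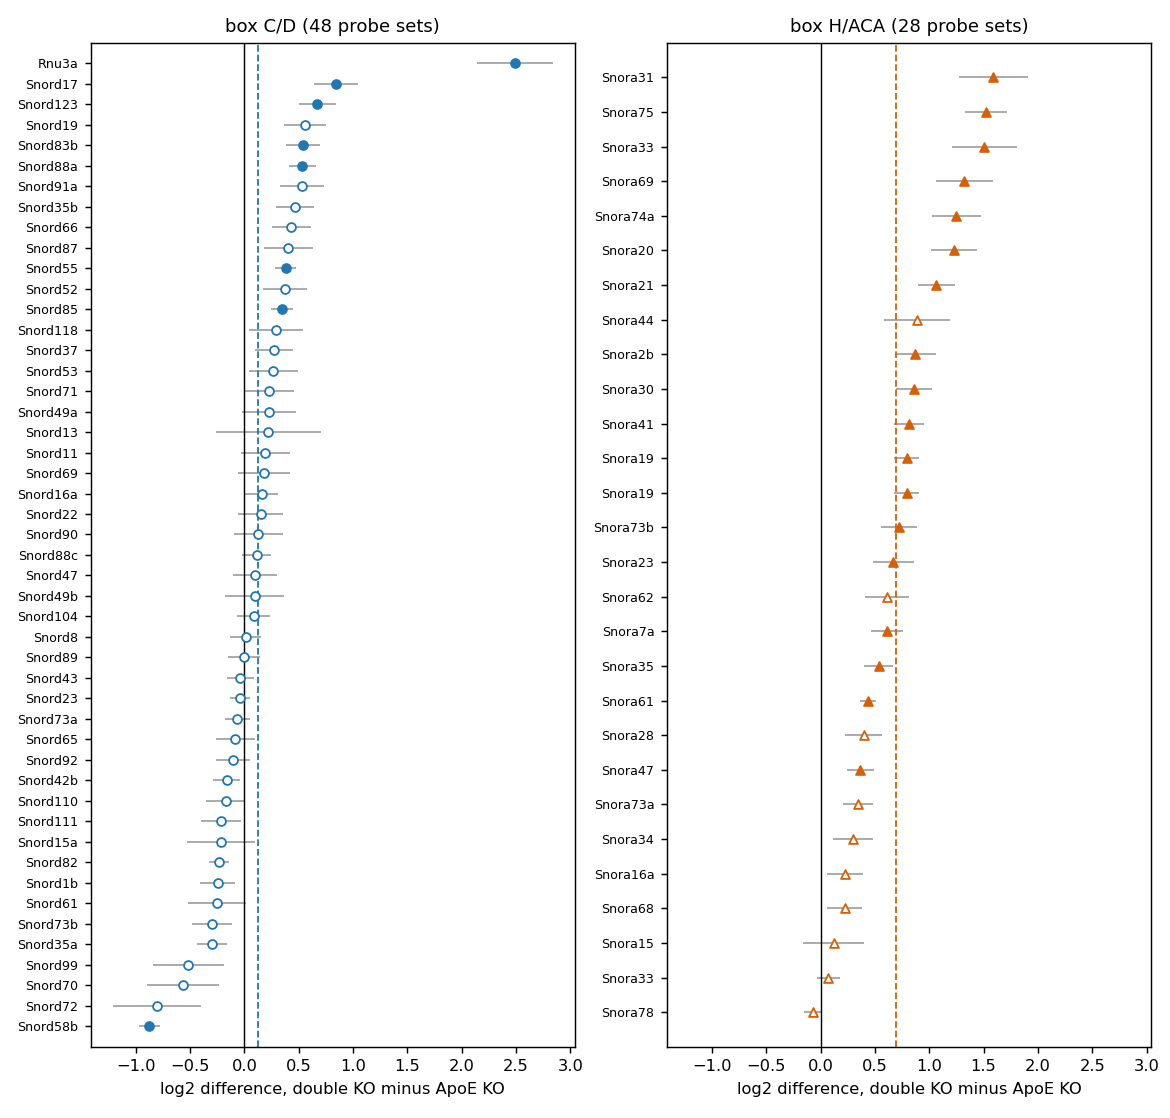
Log2 difference, double knockout minus ApoE knockout, for the 48 box C/D probe sets (left) and the 28 box H/ACA probe sets (right), with bars of 1 standard error and n = 5 aortas per group. Filled symbols passed the limma threshold and dashed lines mark the class medians of 0.12 and 0.69; 27 of the 28 box H/ACA probe sets lie above 0, against 29 of the 48 box C/D probe sets.

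The largest differences of the class belonged to Snora31, Snora75, Snora33, Snora69 and Snora74a. Snora31 read 8.22, 8.91, 8.19, 9.52 and 8.59 in the 5 ApoE knockout aortas and 10.85, 9.27, 10.44, 10.35 and 10.46 in the 5 double knockout aortas. Double knockout replicate 2 was the low array and fell below the highest ApoE knockout array, so the groups overlapped in 1 array of each. The difference was 1.59 (SE 0.32), or 3.01-fold. Snora75, processed from an intron of the nucleolin gene, read 10.47, 10.89, 10.18, 11.31 and 11.03 against 12.51, 12.05, 12.36, 12.27 and 12.31. Its groups did not overlap, the double knockout values lay within a narrow band (SD 0.17), and the difference was 1.52 (SE 0.19).

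The other leading members behaved alike. Snora69 ran from 7.06 to 7.58 in ApoE knockout aortas against 7.74 to 9.20 in double knockout aortas, with a difference of 1.32 (SE 0.26). Snora74a, known as U19, ran from 8.10 to 8.81 against 9.08 to 10.29, a difference of 1.25 (SE 0.23). Neither overlapped, and in both double knockout replicate 2 was the lowest and replicate 1 the highest of its group. Snora21, among the brightest of the class, read 10.35, 11.16, 10.79, 11.13 and 10.97 against 12.14, 11.54, 12.03, 11.84 and 12.17, a 2.09-fold difference.

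The 2 probe sets of Snora33 disagreed. One read 6.53, 7.83, 7.20, 7.90 and 8.11 in the ApoE knockout and 9.68, 8.83, 9.11, 8.69 and 8.79 in the double knockout, a difference of 1.51 (SE 0.30) with no overlap. The other, the brightest member of all with a mean of 12.66, read 12.35, 12.64, 12.44, 12.79 and 12.89 against 12.78, 12.58, 12.72, 12.69 and 12.69, a difference of 0.07 (SE 0.11). Values for Snora33 are therefore uncertain. The small end of the class held Snora16a (0.22, SE 0.17), Snora68 (0.22, SE 0.16), Snora15 (0.12, SE 0.28) and Snora78 (-0.07, SE 0.08), all with overlapping groups. The pair Snora73b and Snora73a, copies of U17, which acts in cleavage of the ribosomal RNA precursor, gave 0.72 (SE 0.16) and 0.34 (SE 0.14), and as the copies are alike, their probe sets may share hybridisation.

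The size of the class difference depended on the scale. The median of the box H/ACA probe sets stayed above 0 under each scaling, at 0.61 after quantile normalization, 0.49 after centring arrays on their median and 0.37 after centring them on the receptor genes. The calls numbered 16, 14 and 7 under these scalings, beside 7.17%, 6.84% and 1.73% of all probe sets called higher. Calls of lower box H/ACA probe sets numbered 0, 1 and 0, beside 6.98%, 15.3% and 10.7% of all probe sets. The 7 that were kept under the receptor scaling were Snora31, Snora75, one probe set of Snora33, Snora69, Snora74a, Snora20 and Snora21. Leaving out 1 aorta at a time kept 16 or 17 of the 18 calls. The call of Snora47 was lost without any one aorta except double knockout replicate 1, and that of Snora23 without ApoE knockout replicate 3 or 5 or double knockout replicate 1 or 5.

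**Figure D2:**
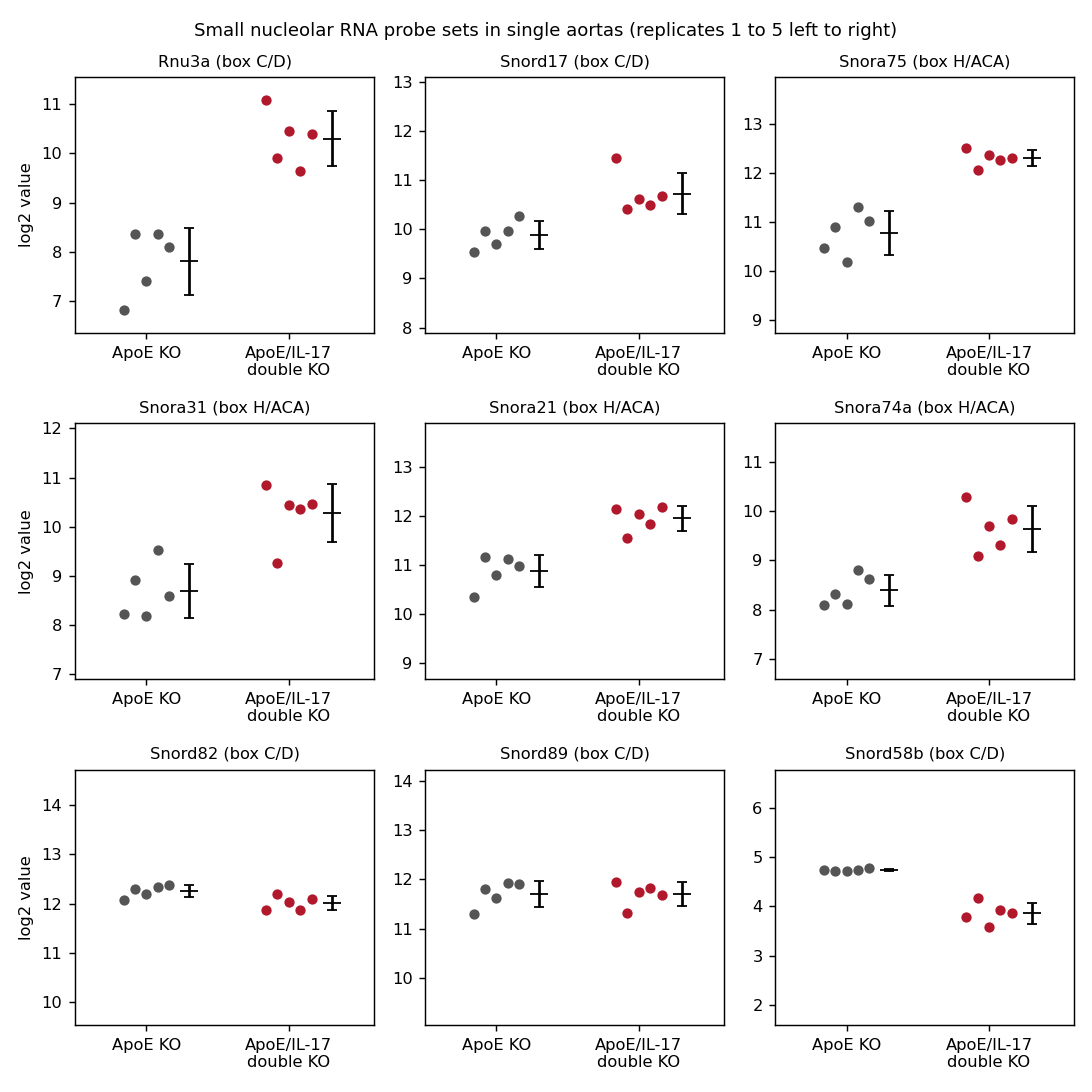
Deposited log2 value of 9 probe sets in each aorta, with replicates 1 to 5 from left to right in each group; the black marks give the group mean ± SD (n = 5). Rnu3a, Snord17, Snora75, Snora21 and Snora74a do not overlap between the groups, Snora31 overlaps in 1 array of each, Snord82 and Snord89 overlap, and Snord58b lies lower in the double knockout; the vertical axes have the same span but different positions.

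Box C/D RNAs had no common direction. Of the 48 probe sets, 29 had a difference above 0 and 19 below, 7 passed as higher, 1 passed as lower and 40 did not pass. The share called higher was 14.6%, beside 21.1% of all probe sets, and that called lower was 2.08%, beside 4.72%. The groups did not overlap in 4 probe sets above and 1 below, beside 15.3% and 3.46% of all probe sets. The class median was 0.12 on the deposited scale. It was 0.07 after quantile normalization and turned to -0.08 and -0.20 after centring on the array medians or the receptor genes. It was 0.01 without ApoE knockout replicate 1 and 0.23 without ApoE knockout replicate 5. No test compared the medians of the classes, since the members were chosen with these values known.

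Rnu3a was the exception, with the largest increase of all 41345 probe sets, the property that drew attention to it. It read 6.81, 8.36, 7.40, 8.37 and 8.09 in the ApoE knockout aortas and 11.09, 9.90, 10.46, 9.64 and 10.40 in the double knockout aortas. All 5 double knockout arrays lay above all 5 others, although both groups were widely spread (SD 0.68 and 0.56). The difference was 2.49 (SE 0.35), or 5.62-fold. The Rnu3a difference was 2.50 after quantile normalization, 2.29 after centring arrays on their median and 2.17 after centring them on the receptor genes. Its call was kept under these 3 scalings and with any 1 aorta left out. As Rnu3a was chosen by this difference in the same arrays, those calls add no support. U3 has several near-identical gene copies, and hybridisation to this probe set cannot be assigned to 1 copy.

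Snord17, a long member of its class, followed with 9.53, 9.96, 9.70, 9.96 and 10.26 against 11.45, 10.40, 10.61, 10.49 and 10.67. The groups did not overlap, double knockout replicate 1 stood apart at the top, and the difference was 0.84 (SE 0.20). Snord123 ran from 7.44 to 8.12 against 7.95 to 8.73, with overlap, a difference of 0.67 (SE 0.17). Snord83b gave 0.54 (SE 0.16), and its call was lost when any one of 8 aortas was left out, that is, any but ApoE knockout replicate 2 and double knockout replicate 3. Snord88a gave 0.53 (SE 0.12), with no overlap. Snord55 (0.38, SE 0.10) and Snord85 (0.35, SE 0.10) completed the 7. Every Snord85 value lay under the receptor level, between 4.51 and 5.22, so its difference is within background, and the Snord88a mean of 5.75 was just under that level. The call of Snord85 was lost without ApoE knockout replicate 1 or 5 or double knockout replicate 4. Under quantile normalization 4 of the 7 calls were kept, under centring on array medians 2, and under centring on receptor genes only that of Rnu3a. Snord19, Snord91a and Snord35b had differences of 0.56, 0.53 and 0.47 but did not pass. The means of Snord19 (3.22) and Snord91a (5.03) lay under the receptor level.

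Among the brightest members of the class, Snord82 read 12.07, 12.29, 12.19, 12.34 and 12.38 against 11.88, 12.20, 12.04, 11.87 and 12.09, a difference of -0.24 (SE 0.09). The groups overlapped and the probe set did not pass on the deposited scale, but it was called lower after centring on array medians (-0.44) or on the receptor genes (-0.56). Snord89 had a mean of 11.71 in both groups, with a difference of -0.01 (SE 0.15). Snord49b, at 11.07 ± 0.65 against 11.16 ± 0.22 (SD, n = 5), differed by 0.09 (SE 0.27). The standard error of Snord49b exceeded the class median, so a change of that size was not detectable there with this number of arrays.

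The 5 lowest differences belonged to Snord58b, Snord72, Snord70, Snord99 and Snord35a. Snord58b, the only member called lower, read 4.74, 4.71, 4.72, 4.73 and 4.78 against 3.78, 4.16, 3.58, 3.92 and 3.87. The groups were apart, but every value lay under the receptor level of 5.79, so this is a difference within background and no fold is given. Snord72 (-0.81, SE 0.40) and Snord70 (-0.57, SE 0.33) also had means under that level and did not pass. Snord99 ran from 8.33 to 9.59 against 7.62 to 9.16, with overlap, and differed by -0.52 (SE 0.33). Snord35a differed by -0.30 (SE 0.14). Among other members with a role in cutting the ribosomal RNA precursor, Snord118 (U8) gave 0.29 (SE 0.25) and Snord22 (U22) 0.15 (SE 0.21). Snord13 (U13), which guides acetylation of ribosomal RNA, had the widest spread of the double knockout members (SD 1.05) and a difference of 0.22 (SE 0.48).

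Among bright probe sets the counts were similar. In a fit of the probe sets with a mean above the receptor level alone, 14 of 24 box H/ACA probe sets were called higher with a median of 0.64, and 5 of 33 box C/D probe sets with a median of 0.16. Of all 21417 such probe sets, 16.8% were called higher and 8.13% lower, and the median was 0.05. The 4 box H/ACA probe sets at or under the level were Snora20, Snora35 and the identical pair of Snora19. All 4 were called higher in the fit of all probe sets, beside 25.9% of the receptor gene probe sets, whose median difference was 0.29. Every Snora19 value lay between 3.85 and 5.03, so its difference is within background. The means of Snora20 and Snora35, both 5.73, lay just under the level. Values near background can shrink a difference, and the scale differed between the groups there.

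The RNAs of the classes differ in length, and extraction can recover RNAs of different length unequally, so length was set beside the difference. Gene lengths came from the RefSeq gene table and ran from 48 to 221 bases, with a median of 68 in box C/D and 117.5 in box H/ACA. Over all 76 probe sets the rank correlation of length with the difference was 0.40, a description over genes that share the same arrays. Within box H/ACA it was -0.19 over 28 probe sets, and within box C/D it was 0.23 over 48 probe sets and 0.18 over 47 without Rnu3a. The limit of 100 bases used next was chosen after the values had been seen.

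Among box C/D probe sets, 5 of 43 shorter than 100 bases were called higher and 1 lower, with a median of 0.10. These are shares of 11.6% and 2.33%, beside 21.1% and 4.72% of all probe sets. Of the 5 that were longer, Rnu3a at 212 bases and Snord17 at 221 bases were called higher, while Snord118 at 137, Snord15a at 148 and Snord22 at 126 bases were not, and their median was 0.29. Among box H/ACA probe sets, 14 of 23 of at least 100 bases were called higher, with a median of 0.67. Of the 5 annotated as shorter, 4 were called: Snora20 with 61 bases (1.22), Snora61 with 62 bases (0.44) and the identical Snora19 pair with 56 bases (0.79), with Snora68 of 98 bases as the exception. These annotated lengths are short for the class. RNA was isolated with RNeasy, a silica column kit, and the recovery of short RNA was not measured in the sources used here; its part in the class difference was not tested.

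**Figure D3:**
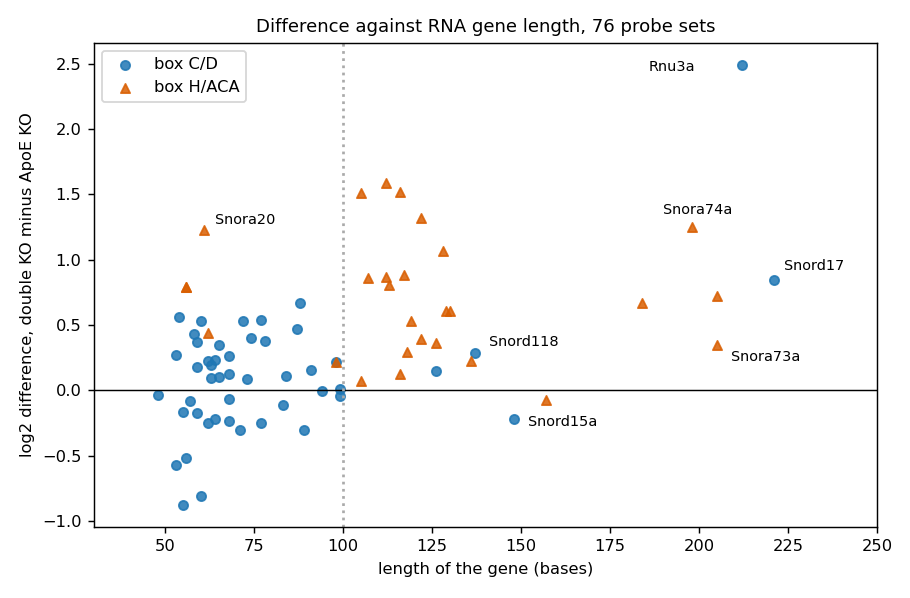
Log2 difference, double knockout minus ApoE knockout, against the annotated length of the gene in bases for the 76 probe sets; circles are box C/D, triangles are box H/ACA, and the dotted line marks 100 bases. Below 100 bases the box C/D points spread around 0 with a median of 0.10, and the 23 box H/ACA points at or beyond it have a median of 0.67.

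The level in single aortas moved together within a class. The median of the 28 box H/ACA probe sets was 7.77, 8.18, 7.89, 8.62 and 8.44 in the ApoE knockout aortas and 9.44, 8.79, 9.0, 8.73 and 9.18 in the double knockout aortas, with no overlap. That of the 48 box C/D probe sets was 7.03, 7.49, 7.31, 7.68 and 7.67 against 7.60, 7.47, 7.25, 7.62 and 7.78, with overlap. ApoE knockout replicate 1 was the lowest of its group in 32 of 48 box C/D and 16 of 28 box H/ACA probe sets. Double knockout replicate 2 was the lowest of its group in 23 of 48 and 16 of 28. Double knockout replicate 1 was the highest in 15 of 28 box H/ACA probe sets, and double knockout replicate 5 in 24 of 48 box C/D probe sets. The spread of the members exceeded that of the arrays at large: the median SD within the ApoE knockout was 0.34 for box C/D and 0.25 for box H/ACA, against 0.18 over all probe sets.

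**Figure D4:**
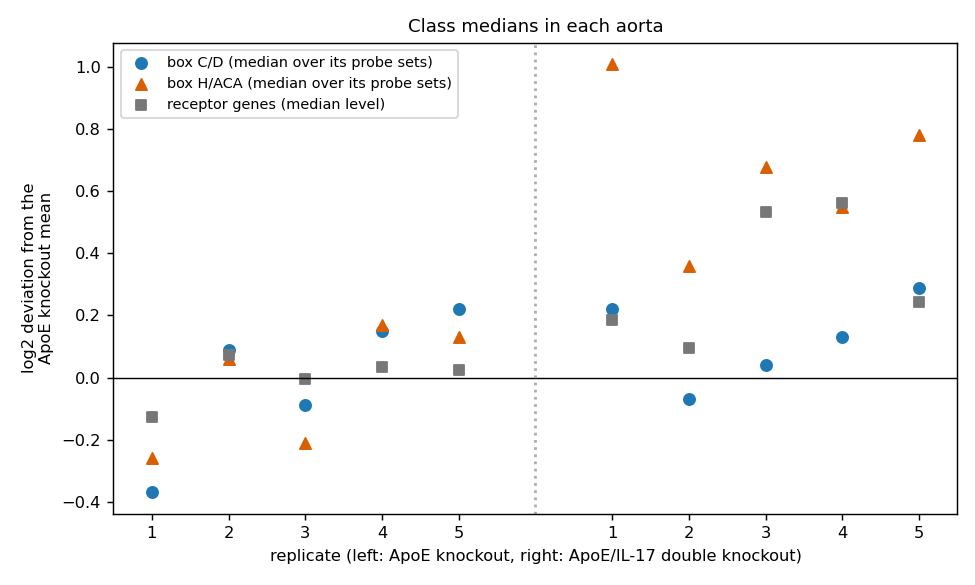
Circles (box C/D, 48 probe sets) and triangles (box H/ACA, 28 probe sets) give a median of deviations in each aorta, in log2 units. Each deviation was that of a probe set from its own mean over the ApoE knockout aortas, and the median was taken over the class. Squares give the median level of the receptor genes (1438 probe sets) minus its mean over the ApoE knockout aortas. Box H/ACA deviations run from 0.36 to 1.01 in the double knockout aortas and from -0.26 to 0.17 in the ApoE knockout aortas, while box C/D deviations overlap.

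Members of the same host gene differed in direction or size. A host was taken as the smallest annotated gene whose span held the member, without a check of the strand, and 72 of the 76 probe sets had one. The nucleolin gene Ncl, which encodes a nucleolar protein of ribosome assembly, holds Snora75 (1.52) and Snord82 (-0.24), while Ncl itself differed by -0.05 (SE 0.09, limma adjusted p = 0.68, n = 5 per group). Snhg12, a host transcript with no known protein, holds Snora44 (0.89), Snora61 (0.44), Snora16a (0.22) and Snord99 (-0.52), with a host difference of 0.16 (limma adjusted p = 0.22). Within it the box H/ACA members lay above 0 and the box C/D member below. The Snhg12 means of 5.62 (ApoE knockout) and 5.78 (double knockout) lay just under the receptor level, so its own difference lies near background. The Snora61 values lay between 7.02 and 7.28 against 7.54 and 7.66, with no overlap, whereas Snora44 was not called and its groups overlapped. 2410006H16Rik holds Snord49a (0.23), Snord49b (0.09) and Snord65 (-0.08), and differed by -0.08 itself.

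Snhg12 and 2410006H16Rik are the hosts with at least 3 member probe sets, and their start regions are shown because host genes of this kind often begin with a pyrimidine tract, the 5′ terminal motif of transcripts whose translation follows growth signals. Each line gives 70 bases of the plus strand of GRCm38.p6 from RefSeq, 40 before the annotated start and 30 from it, in the order chr4:132308638-132308707 and chr11:62602837-62602906. Capitals mark an unbroken run of at least 6 C or T bases that contains the annotated first base.
Snhg12: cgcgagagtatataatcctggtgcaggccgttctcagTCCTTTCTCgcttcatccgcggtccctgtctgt
2410006H16Rik: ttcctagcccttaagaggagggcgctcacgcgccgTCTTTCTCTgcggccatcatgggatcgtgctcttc
The run is 9 bases long in both. Such a run at the start, read in the direction of the gene, was found in 7.25% of 32851 promoter windows. It is a description of the letters and not evidence of regulation in these aortas.

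The hosts as a group had a median difference near 0. Of 56 host genes, 42 protein coding and 14 noncoding, 43 had a probe set of their own. By limma, 6 were called higher, 2 lower and 35 did not pass, and their median difference was -0.01. The 6 were 2410002F23Rik, Htr2c, Ipo7, Rpl39, Snhg18 and Snhg9, and the 2 were Eif5 and Nop53. These calls came to 6 and 2 of 43, beside 21.1% and 4.72% of all probe sets. Htr2c read 4.03 or less in every aorta, under the receptor level, so its difference lies within background. Snhg18, the host of Snord123, differed by 0.41 (SE 0.07, limma adjusted p = 0.0031, n = 5 per group), a call lost after centring on array medians (0.20) or on receptor genes (0.09). Rpl39, the host of Snora69, differed by 0.33 (SE 0.07, limma adjusted p = 0.011), a call lost under each of the other scalings, while its member differed by 1.32. After centring arrays on their median the host calls were 2 higher and 13 lower, beside 6.84% and 15.3% of all probe sets. After centring them on the receptor genes the host calls were 0 higher and 8 lower, beside 1.73% and 10.7%.

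Of 26 box H/ACA probe sets with a measured host, 24 had a larger difference than the host, as had 18 of 33 box C/D probe sets. The members were chosen by their differences and the hosts were not, so these counts are a description and add no support. Of the 17 called box H/ACA probe sets with a measured host, 3 had a host called higher, Htr2c among them, 0 a host called lower and 14 a host that did not pass. Snora31 lies in Tpt1, which encodes a translationally controlled protein and differed by -0.09. The probes of a small nucleolar RNA do not tell the mature RNA from unspliced host RNA.

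**Figure D5:**
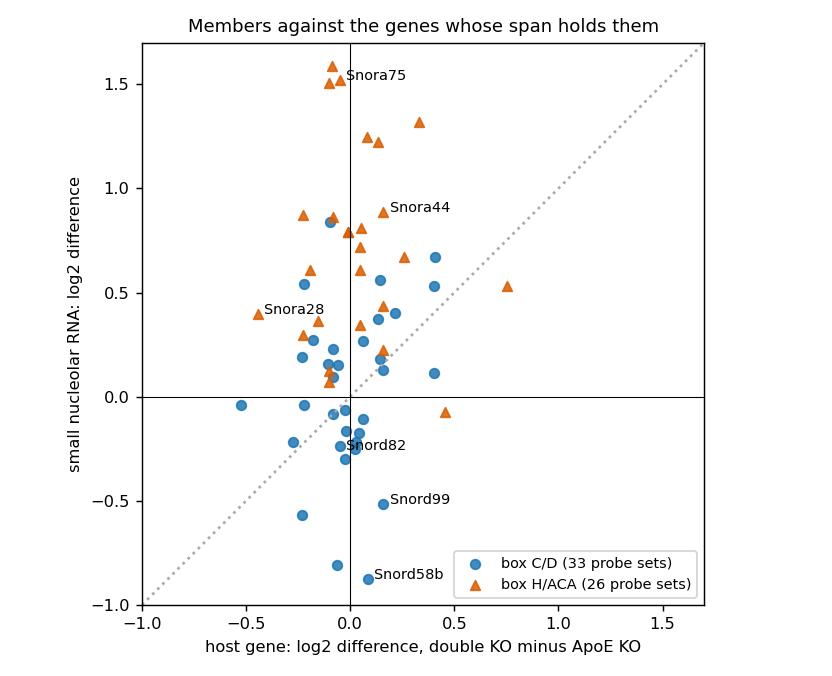
Log2 difference of the small nucleolar RNA probe set against that of its host gene, for 33 box C/D (circles) and 26 box H/ACA (triangles) probe sets with a measured host; the dotted line marks equal differences. Box H/ACA points lie above the line in 24 of 26 cases and box C/D points in 18 of 33.

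Of 44 listed genes for core proteins, assembly factors and the U3 particle, 42 were measured: 2 were called higher, 1 lower and 39 did not pass, with a median of -0.03, beside 21.1% higher and 4.72% lower of all probe sets. The calls were 1 higher and 3 lower after quantile normalization, beside 7.17% and 6.98% of all probe sets. After centring on array medians the calls were 0 and 12, beside 6.84% and 15.3%. After centring on the receptor genes the calls were 0 and 5, beside 1.73% and 10.7%. Nhp2, a core protein of the H/ACA particle, rose by 0.33 (SE 0.08, limma adjusted p = 0.012, n = 5 per group), a call lost after centring on array medians (0.13) or the receptor genes (0.01). Nolc1, a nucleolar chaperone of both classes, was 0.24 higher (SE 0.07, limma adjusted p = 0.034, n = 5 per group) and turned to -0.08 after centring on the receptor genes. Its call was lost without any one of ApoE knockout replicates 1 to 4 or double knockout replicates 2, 4 and 5. Imp3, a component of the U3 particle, was the one called lower, at -0.39 (SE 0.09, limma adjusted p = 0.014, n = 5 per group).

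The other core proteins did not pass. Dkc1, the dyskerin gene, differed by -0.17 (SE 0.10), Nop10 by 0.07 (SE 0.10) and Gar1 by 0.07 (SE 0.11). Among box C/D partners, Nop56 differed by 0.04 (SE 0.07), Nop58 by -0.23 (SE 0.14) and Snu13 by -0.08 (SE 0.08). The small positive values of Nop56, Nop10 and Gar1 turned negative after centring arrays on their median or the receptor genes, and that of Gar1 also after quantile normalization and without ApoE knockout replicate 1. All 19 U3 particle genes were measured, and 18 of them did not pass.

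Of 16 probe sets for other short noncoding RNAs that are not microRNA genes, 5 were called higher and 2 lower, with a median of 0.10. These are shares of 31.2% and 12.5%, beside 21.1% and 4.72% of all probe sets. Rpph1, the RNA of RNase P, rose by 0.42 (SE 0.07, limma adjusted p = 0.003, n = 5 per group), a call lost after centring on array medians (0.21) or receptor genes (0.10). Terc, the telomerase RNA, which carries an H/ACA domain, fell by 0.95 (SE 0.23, limma adjusted p = 0.014, n = 5 per group). Scarna6, a related RNA of the Cajal body, fell by 0.53 (limma adjusted p = 0.013). A Scarna17 probe set was 0.47 higher (limma adjusted p = 0.048), and another, at 0.26, did not pass. Of all 6 probe sets for Cajal body RNAs, 1 was called higher and 1 lower, with a median of 0.11. Of 3 probe sets for small nuclear RNAs, 2 were called higher (66.7%, beside 21.1% of all probe sets), with a median of 0.52. The 2 were Rnu12 (0.52, limma adjusted p = 0.045) and Rnu5g (0.55, limma adjusted p = 0.022). Every Rnu5g value lay between 1.56 and 2.62, under the receptor level, so its difference is within background. Rny1 was 0.63 higher (limma adjusted p = 0.042), a call lost under each other scaling and without any one of ApoE knockout replicates 1, 2, 3 and 5 or double knockout replicates 1, 4 and 5. Rn7sk (-0.02) and Rny3 (0.00) lay near 0. Of 511 microRNA probe sets, 143 were called higher and 11 lower, with a median of 0.26, beside 0.29 for the receptor genes. The share called higher was 28.0%, beside 21.1% of all probe sets. The balance depended on the scale: over all 527 other short RNA probe sets, 148 were higher and 13 lower on the deposited scale, 64 and 37 after quantile normalization, 67 and 41 after centring on array medians, and 31 and 36 after centring on the receptor genes.

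Marker genes of blood cells also differed between the groups. All 4 measured erythroid markers, of 6 listed, were called lower in the double knockout, with a summed log2 level of 12.78 to 13.34 in the ApoE knockout and 9.54 to 10.33 in the double knockout. All 4 measured platelet markers, of 5 listed, were called lower (13.06 to 13.54 against 11.50 to 12.12), as were all 4 neutrophil markers, all 3 measured B cell markers and 3 of 4 measured T cell markers. None of these markers stood at or below the receptor level. Among smooth muscle markers 2 of 6 were called higher, and no macrophage marker passed. The part of cell composition in the differences of the small nucleolar RNAs was not tested.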

How the data were processed

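Total RNA of 10 aortas was measured on arrays, 5 per group as the sample titles give. The deposited values are log2 intensities per probe set, and the base was inferred from their range; the submitters' processing notes name limma alone, without a version. Background correction and normalization: not given in the sources used here. Of 41345 probe sets, 23521 had 1 symbol, 1814 several (47 with a small nucleolar RNA, left out) and 16010 are unnamed here. The number of arrays limits the precision, and p-values measure the spread between these samples. Group was the only term in lmFit and eBayes of limma 3.58.1 (R 4.3.3), two-sided, with Benjamini-Hochberg adjustment over all probe sets at 0.05. In simulated data for this comparison, with 200 of 41345 probe sets changed, 87% of changes of 1 and 96% of changes of 2 on the log2 scale were recovered, with 17 false calls. The simulated noise was normal and independent between probe sets, without the difference of scale seen between the groups. The false calls therefore do not measure the error in these arrays. The changed probe sets were drawn from all probe sets, and the members had a larger median SD than these. The recovered shares therefore need not hold for the small nucleolar RNAs.

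The members and lists were chosen with earlier results of these data known. Named members were Rnu3a, the 8 largest and 5 lowest differences in box C/D, the 5 largest and 5 lowest in box H/ACA, the 3 brightest of each class and those of hosts with at least 3 members; others were singled out after their values were seen. Named partner genes were 8 core proteins and the 4 smallest p in the other lists. Hosts, gene lengths and start regions came from RefSeq tables (GRCm38.p6), which held all 76 members and give no strand for genes. Fbl and Phax had no probe set with their symbol alone. Figures were drawn with matplotlib 3.10.9.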

Additional observations from a re-analysis of the deposited data

Results flagged for a closer look

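In 2 of 58 groups of 5 aortas checked for the genes named here and the class medians, 1 aorta stood apart from the other 4, with a gap over 0.71 of the group's range; chance flags about 1 in 20 groups. Snord17 read 11.45 in double knockout replicate 1, against 10.40 to 10.67 in the other 4 double knockout aortas, and the gap was 0.742 of the range. Without that aorta Snord17 was still called higher. Snord91a read 5.95 in the same aorta, against 4.96 to 5.21, with a gap of 0.747 of the range, and its difference did not pass the threshold in the whole comparison.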

How the results depend on the processing

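For 26 named small nucleolar RNA probe sets besides Rnu3a, the 3 other scalings moved 57 of 78 differences by less than the replicate SD and 21 by more, while array weights and leaving out each aorta moved 0 beyond it; other alternatives leave a difference as it is. The 18 box H/ACA calls fell most under receptor centring. Of all probe sets, 7.17% were called higher and 6.98% lower after quantile normalization. The shares were 6.84% and 15.3% on array medians, and 1.73% and 10.7% on receptor genes. Quantile normalization gave 4 box C/D calls higher and 101 calls among other short RNAs (64 higher, 37 lower). Centring on array medians gave 2 box C/D calls higher, 3 lower and 1 box H/ACA call lower, a box C/D median of -0.084, 15 host calls (2 higher, 13 lower) and 12 calls among particle proteins, all lower. Centring on receptor genes gave 1 box C/D call higher and 5 lower, 7 box H/ACA calls higher, a box C/D median of -0.20, 5 calls among particle proteins and 67 among other short RNAs (31 higher, 36 lower). Keeping probe sets above the receptor level, or the upper 60%, left 0 box C/D calls lower, as Snord58b was not tested, and 53 or 68 calls among other short RNAs. At an adjusted p under 0.01 there were 13 box H/ACA calls and 1 box C/D call higher. Host calls numbered 5, calls among particle proteins 0 and those among other short RNAs 73. The share of all probe sets called at that threshold was not computed. Leaving out each aorta gave 1 to 2 box C/D calls lower, with 2 only without double knockout replicate 2.

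Signs turned for some partner and host genes and for Rny3 and Rn7sk. On array medians and receptor genes, in that order, they became -0.16 and -0.28 for Nop56, -0.13 and -0.25 for Nop10, -0.14 and -0.26 for Gar1, -0.046 and -0.16 for Snhg12, -0.063 and -0.18 for Gnl3, -0.12 and -0.24 for Rpl17, -0.12 and -0.24 for Snhg4, and -0.20 and -0.32 for Rny3. Nolc1, called higher on the deposited scale, became -0.081 on receptor genes. After quantile normalization Gar1 was -0.044, Snhg12 -0.065, Rpl17 -0.12 and Rn7sk 0.049. Rny3 was -0.049 with array weights, from -0.12 to 0.10 with each aorta left out, and below 0 without ApoE knockout replicate 1, 3 or 5 or double knockout replicate 1 or 4. Gar1 ran from -0.0042 (without ApoE knockout replicate 1) to 0.13. Rpl37 ran from -0.20 to 0.040 and was above 0 without ApoE knockout replicate 4 or double knockout replicate 1. Causes were not tested. For the other genes 583 values kept direction and call, 38 lost the call and 20 gained one.

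The replicate numbers do not pair the aortas. After the group mean of each probe set was subtracted, same-numbered aortas had correlations of 0.20, 0.05, -0.11, 0.08 and 0.02. With the number as a replicate block there were 6 box C/D calls higher, 1 lower, 16 box H/ACA calls higher, 8 host calls, 2 among particle proteins and 149 among other short RNAs. Low signal limits Snord58b, Snora19 and other members near the receptor level.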
